A study of Mus musculus with 10 samples.

Results

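The VEGF and angiopoietin ligands and receptors are 10 genes of the 54532 in the gene count table, taken by symbol: the VEGF ligands Vegfa, Vegfb and Vegfc, the angiopoietins Angpt1 and Angpt2, the VEGF receptors Flt1, Kdr and Flt4, the co-receptor Nrp1 and the angiopoietin receptor Tek. All 10 passed the filter on low counts in every comparison. They were listed as a family, but the list was chosen with earlier results from these libraries known, among them lower Vegfa counts with FTY720. The FTY720 and digit comparisons of the members are therefore a description and were not used as tests.

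Bulk brain RNA was sequenced from 10 mice homozygous for a Slc20a2 knockout allele (tm1a, EUCOMM; Slc20a2-HO), 6 given FTY720 and 4 given placebo. FTY720 acts on sphingosine-1-phosphate receptors and keeps lymphocytes in lymph nodes. It was injected intraperitoneally at 0.5 mg/kg in DMSO from 1.5 months of age for 12 weeks, the placebo mice received DMSO, and all mice were perfused before part of the brain was taken for RNA. Because all 10 mice carry the Slc20a2 knockout in every cell, and no wild type library was analysed here, the comparison is of treatment within the knockout. Each mouse has a name such as F3-908, in which F is FTY720, P is placebo and the next digit is 1 or 3. The labels do not say what this digit is. FTY720 mice have 3 names with digit 3 and 3 with digit 1, and placebo mice have 3 with digit 3 and 1, P1-623, with digit 1.

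VEGF-A is secreted by cells that sense low oxygen and by brain glia and neurons, and binds KDR (VEGFR2), which drives endothelial growth and permeability, and FLT1 (VEGFR1), which binds VEGF-A tightly and signals weakly. VEGF-B binds FLT1, VEGF-C binds FLT4 (VEGFR3) and, once processed, KDR, and NRP1 is a co-receptor for VEGF-A. ANGPT1, made largely by cells around the vessel, activates the endothelial receptor TEK (TIE2) and keeps vessels tight, whereas ANGPT2, made by endothelial cells, acts on TEK mostly as an antagonist.

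The libraries held between 14772745 and 18303981 counts per mouse. Slc20a2 itself had 6.31 to 14.8 CPM (counts scaled to the TMM-normalized library size) in FTY720 mice and 9.43 to 17.0 CPM in placebo mice. It was at 13.9 ± 1.85 CPM (SD, n = 6) with digit 3 and 8.25 ± 1.44 CPM (SD, n = 4) with digit 1. A whole-gene count cannot say which exons gave this signal. Libraries with digit 3 stood apart from those with digit 1: a list of 16 cerebellum genes summed to between 2354 and 3031 CPM in the 6 digit-3 libraries and to between 631 and 825 CPM in the 4 digit-1 libraries, and all 16 genes were called higher. Of 12 microglia and macrophage genes, 7 were called lower with digit 3. These calls were made in edgeR at an adjusted p under 0.05, with treatment as a covariate. Of all 17665 genes tested, 28.4% were called in the same way. Xist was at 0.0590 to 4.13 CPM in the 6 mice whose number begins with 6 and at 464 to 989 CPM in the 4 whose number begins with 9. The 24-gene endothelial list was measured in full, with none of its genes at 0 in all mice of a group. In bulk tissue, fewer cells of a type and less RNA per cell cannot be told apart.

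Of the 10 members, 8 matched the RefSeq promoter table of GRCm38.p6, with 9 promoters, since Vegfa has 2 annotated starts. The 250 bases upstream of the start are shown for Vegfa, for the start at the 5′ end of the gene, and for its receptors Flt1 and Kdr, because these are the ligand and receptors set against each other below. Capitals mark GGAAG on either strand (CTTCC on the other), the core of many ETS factor sites; ETS factors are transcription factors known for endothelial genes. All 3 genes lie on the minus strand, and the windows are chr17:46032378-46032627 for Vegfa, chr5:147726012-147726261 for Flt1 and chr5:75978456-75978705 for Kdr.
Vegfa: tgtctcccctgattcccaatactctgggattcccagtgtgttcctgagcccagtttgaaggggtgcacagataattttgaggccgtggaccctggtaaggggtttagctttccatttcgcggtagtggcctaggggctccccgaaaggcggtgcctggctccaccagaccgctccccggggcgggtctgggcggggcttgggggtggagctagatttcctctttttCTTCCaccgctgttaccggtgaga
Flt1: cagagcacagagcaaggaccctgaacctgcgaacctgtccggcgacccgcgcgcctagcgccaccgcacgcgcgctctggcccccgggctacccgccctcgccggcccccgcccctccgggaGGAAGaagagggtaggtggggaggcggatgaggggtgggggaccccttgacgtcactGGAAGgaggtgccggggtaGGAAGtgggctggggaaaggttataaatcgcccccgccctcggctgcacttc
Kdr: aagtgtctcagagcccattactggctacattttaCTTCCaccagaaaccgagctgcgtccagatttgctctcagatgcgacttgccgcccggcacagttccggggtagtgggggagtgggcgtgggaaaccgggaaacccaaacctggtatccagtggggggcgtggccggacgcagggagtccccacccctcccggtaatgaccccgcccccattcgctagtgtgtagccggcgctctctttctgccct
The letters GGAAG occurred 3 times upstream of Flt1, 1 time upstream of Kdr and 1 time upstream of this Vegfa start. They were present for 5 of the 8 matched members, and in 64.1% of all 32851 promoters of the same length, so the motif is common. ACGTG, a form of the core of the hypoxia response element, was absent from the Vegfa window shown. It was present 1 time upstream of the inner Vegfa start, 7206 bases away from the gene's start. No other matched member had ACGTG, against 16.6% of all promoters. The other form of this core, GCGTG, was not counted, and it occurs in the Flt1 and Kdr windows shown. Absence of ACGTG is therefore not absence of the core. GGGCGG, the GC box bound by SP1, was found in 7 of the 8 matched members, in 4 copies upstream of Vegfb and in none upstream of Tek, against 32.7% of all promoters. The motifs were searched on both strands, and a GGAAG and a GGGCGG match can share end letters. They are matches of letters, not measured binding.

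The levels of the 10 genes can be compared with each other only per gene length, for which the deposited FPKM values were used. Over all 10 mice the ligands Vegfb (40.2 ± 9.77 FPKM, SD, n = 10) and Vegfa (17.6 ± 3.75 FPKM) were far above every receptor. The receptors followed, with Flt1 at 3.498 ± 1.15 FPKM, Tek at 2.41 ± 0.513 FPKM and Nrp1 at 2.11 ± 0.485 FPKM. Angpt1 (1.85 ± 0.354 FPKM) lay above Kdr (1.30 ± 0.356 FPKM), the main signalling receptor of VEGF-A. Vegfc (1.02 ± 0.322 FPKM), Angpt2 (0.570 ± 0.170 FPKM) and Flt4 (0.290 ± 0.0876 FPKM) were lowest, and rest on 18 to 63, 16 to 47 and 20 to 58 counts per mouse.

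Of the 9 neighbouring pairs in this order, 7 differed by a two-sided exact sign-flip permutation test over the 10 mice on log2(FPKM + 0.1), with Benjamini-Hochberg adjustment over the 9 pairs. Vegfb was above Vegfa in 10 of 10 mice, by 1.18 on the log2 scale (adjusted p = 0.00439, exact permutation test, from a raw p of 0.00195 that is the smallest 10 mice can give). Flt1 was likewise above Tek in 10 of 10 mice, by 0.48. Tek and Nrp1 did not differ beyond their spread (7 of 10 mice, adjusted p = 0.132, exact permutation test), nor did Nrp1 and Angpt1 (7 of 10 mice, adjusted p = 0.168, exact permutation test). The order therefore places the ligands Vegfb and Vegfa at the top, Flt4 at the bottom, and Tek, Nrp1 and Angpt1 close together in the middle.

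**Figure D1:**
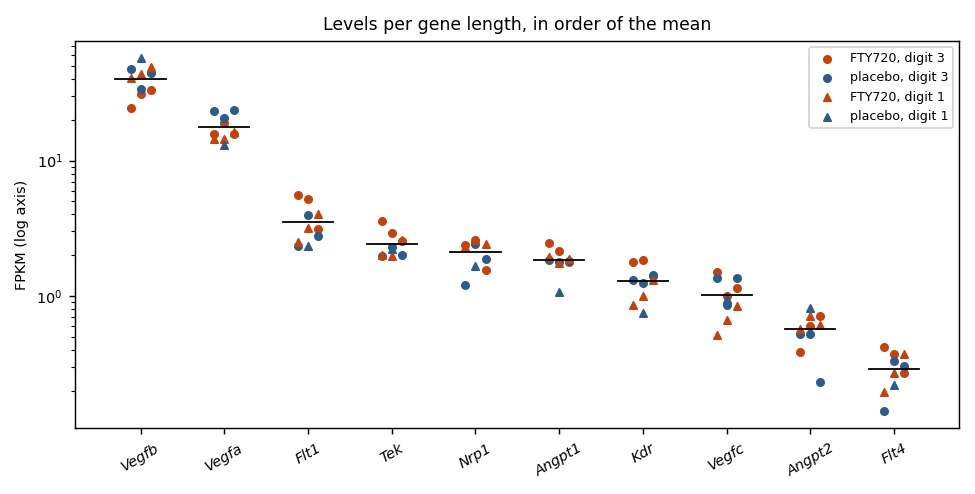
FPKM (log axis) of each of the 10 genes in each of the 10 mice, ordered by the mean over all mice (black line); circles are libraries with digit 3, triangles libraries with digit 1, orange FTY720 and blue placebo. Vegfb and Vegfa lie above the receptors in every mouse, and Tek, Nrp1 and Angpt1 share a range.

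With FTY720 the 3 VEGF ligands were lower than with placebo, while all 5 receptors and both angiopoietins were higher. The log2 fold changes were -0.35 to -0.27 for the VEGF ligands and 0.20 to 0.45 for the receptors. Of the 10 members 1, Vegfa, passed the study's criterion of an unadjusted p under 0.05 in edgeR's quasi-likelihood test, which 2.61% of all 14784 protein-coding genes tested passed. The median log2 fold change was 0.24 over the members and 0.00 over all protein-coding genes. No gene passed after Benjamini-Hochberg adjustment, where the smallest adjusted p of edgeR over all genes was 0.99992. No member had groups that did not overlap in CPM, as 0.804% of all 17665 genes tested did.

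Vegfa (ENSMUSG00000023951, chromosome 17 from 46016993 to 46032369, minus strand) was at 62.0 CPM in the lowest, 68.1 in the median and 81.2 in the highest of the 6 FTY720 mice. In placebo it was at 101 CPM in P3-612, 89.5 in P3-904, 102 in P3-907 and 57.0 in P1-623. The 3 placebo mice with digit 3 were above every FTY720 mouse, whereas P1-623 was below every FTY720 mouse. The log2 fold change was -0.35 (SE 0.15), with 68.7 ± 7.03 CPM (SD, n = 6) under FTY720 against 87.3 ± 21.0 CPM (SD, n = 4) under placebo. Leaving out 1 mouse at a time, the call was lost in 8 of 10 cases and the log2 fold change lay between -0.50, without P1-623, and -0.26, without P3-907.

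Vegfb (chromosome 19 from 6982473 to 6987651, minus strand) was at 39.1 CPM in the lowest, 59.7 in the median and 78.9 in the highest FTY720 mouse. The placebo mice had 92.6 CPM in P1-623, 77.1 in P3-612, 54.2 in P3-904 and 71.9 in P3-907. The ranges overlapped, and the log2 fold change was -0.31 (SE 0.20). Vegfc, the ligand of the lymphatic receptor, had 1.28 to 3.70 CPM with FTY720 and 2.14 to 3.41 CPM with placebo, a log2 fold change of -0.27 (SE 0.29) that was smaller than its error.

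Among the receptors, Flt1 (chromosome 5 from 147561604 to 147726011, minus strand) had the highest fold change. It was at 34.1 CPM in the lowest, 49.2 in the median and 74.8 in the highest FTY720 mouse. In placebo it was at 31.9 CPM in P1-623, 32.1 in P3-612, 38.1 in P3-907 and 54.0 in P3-904. F3-609 and F3-612 stood above all other mice, with 74.8 and 70.5 CPM, and P3-904 was above 3 of the FTY720 mice. The log2 fold change was 0.45 (SE 0.23), not called.

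Kdr (chromosome 5 from 75932827 to 75978458, minus strand) was at 7.87 CPM in the lowest, 12.4 in the median and 16.7 in the highest FTY720 mouse. The placebo mice had 6.94 CPM in P1-623, 11.9 in P3-612, 11.4 in P3-904 and 13.2 in P3-907. The log2 fold change was 0.20 (SE 0.24), within its error over all 10 mice. Flt4 (1.63 to 3.46 CPM with FTY720, 1.19 to 2.77 CPM with placebo) and Nrp1 (15.6 to 25.8 CPM and 11.9 to 24.0 CPM) had log2 fold changes of 0.34 (SE 0.29) and 0.35 (SE 0.19).

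Tek (chromosome 4 from 94739289 to 94874976, plus strand) was at 9.49 CPM in the lowest, 12.2 in the median and 16.8 in the highest FTY720 mouse. Placebo values lay close together, at 10.7 CPM in P1-623, 9.45 in P3-612, 10.9 in P3-904 and 9.64 in P3-907. Only F1-622 and F1-624 of the FTY720 mice were inside the placebo range, and the log2 fold change was 0.28 (SE 0.17). Of its ligands, Angpt1 was at 9.20 to 12.9 CPM with FTY720 and at 5.70 CPM in P1-623 and 9.30 to 9.68 CPM in the other placebo mice, a log2 fold change of 0.29 (SE 0.17). Angpt2 was at 1.43 to 2.69 CPM and 0.867 to 3.08 CPM (log2 fold change 0.19, SE 0.31). Angpt1 overlaps the antisense gene Gm17473, and Angpt2 lies within the reach of Mcph1 on the other strand. The strand setting of the counting is not given in the sources used here, so both values are uncertain.

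**Figure D2:**
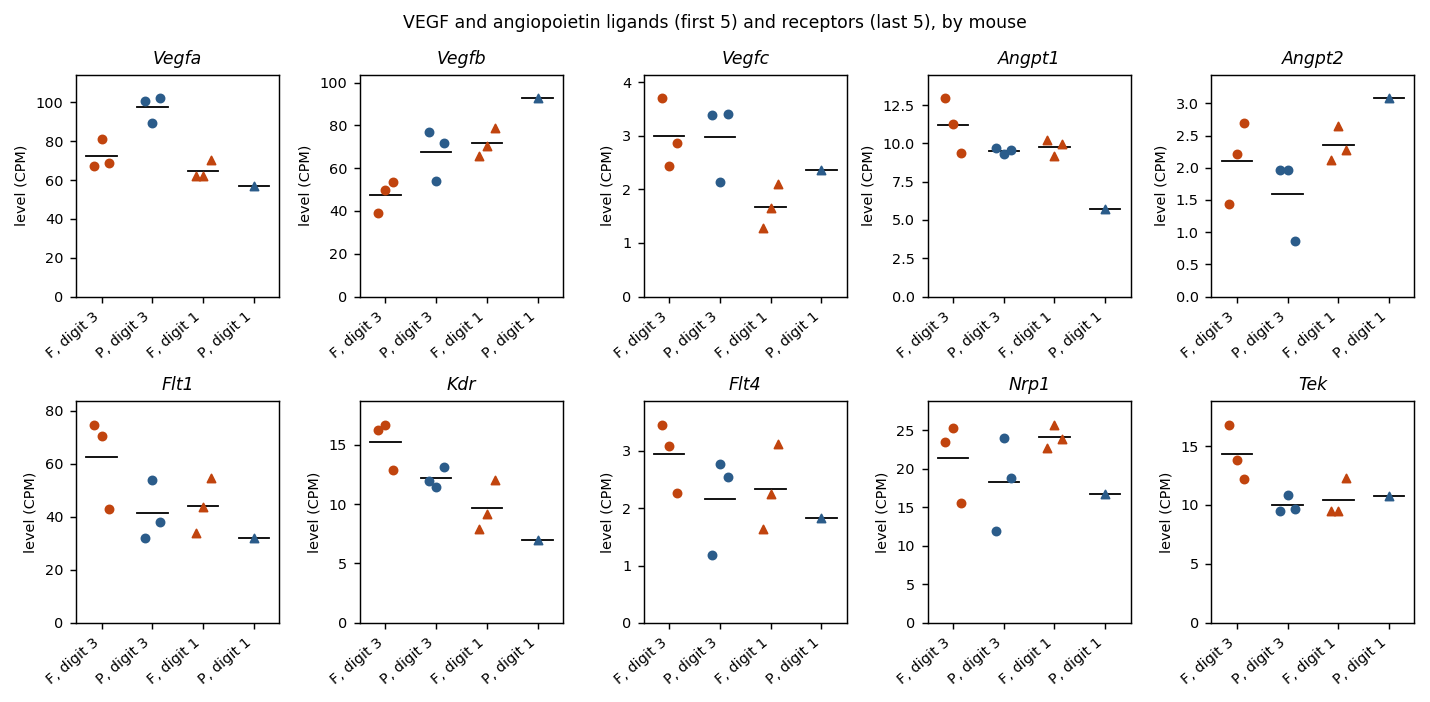
CPM (axis from 0) of each gene in each mouse, by treatment (F, FTY720, orange; P, placebo, blue) and name digit (circles 3, triangles 1), with the group mean as a black line. Among the digit-3 mice, Vegfa and Vegfb were lower and Tek higher in every FTY720 mouse than in every placebo mouse; placebo with digit 1 is a single mouse.

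The digit takes an unequal share of the 2 treatment groups, so the comparison was repeated among the 6 mice with digit 3, 3 with FTY720 and 3 with placebo. Here 4 of 10 members were called, where 7.95% of the 14734 protein-coding genes tested were, and 3 of 10 had groups that did not overlap, where 12.9% of all genes tested did. Vegfa was at 67.4, 68.8 and 81.2 CPM with FTY720 and at 89.5, 101 and 102 CPM with placebo, a log2 fold change of -0.42 (SE 0.12). Vegfb was at 39.1, 49.9 and 53.6 CPM with FTY720 and 54.2, 71.9 and 77.1 CPM with placebo (log2 fold change -0.51, SE 0.17). Both ligands were thus lower in every FTY720 mouse, though for Vegfb the highest FTY720 mouse and the lowest placebo mouse differed by less than 1 CPM. Tek was at 12.2, 13.8 and 16.8 CPM with FTY720 and 9.45, 9.64 and 10.9 CPM with placebo (log2 fold change 0.52, SE 0.16). Flt1, also called, was 0.61 higher on the log2 scale (SE 0.24), with P3-904 above F3-908, and Kdr was 0.33 higher (SE 0.15), with P3-907 above F3-908.

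With the digit as a covariate in the fit over all 10 mice, 5 of 10 members were called, where 14.1% of protein-coding genes were. These were Vegfb (log2 fold change -0.46, SE 0.12), Flt1 (0.56, SE 0.19), Kdr (0.37, SE 0.14), Angpt1 (0.40, SE 0.14) and Tek (0.33, SE 0.15). Vegfa, called without the covariate, was at -0.23 (SE 0.12) and was no longer called. No gene passed after adjustment in either fit, with smallest adjusted p-values of edgeR of 0.654 among digit-3 mice and 0.354 with the covariate. The receptors were higher in all 3 fits, 5 of 5 each time, and Vegfa and Vegfb lower, whereas Vegfc was at 0.02 (SE 0.28) among digit-3 mice.

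**Figure D3:**
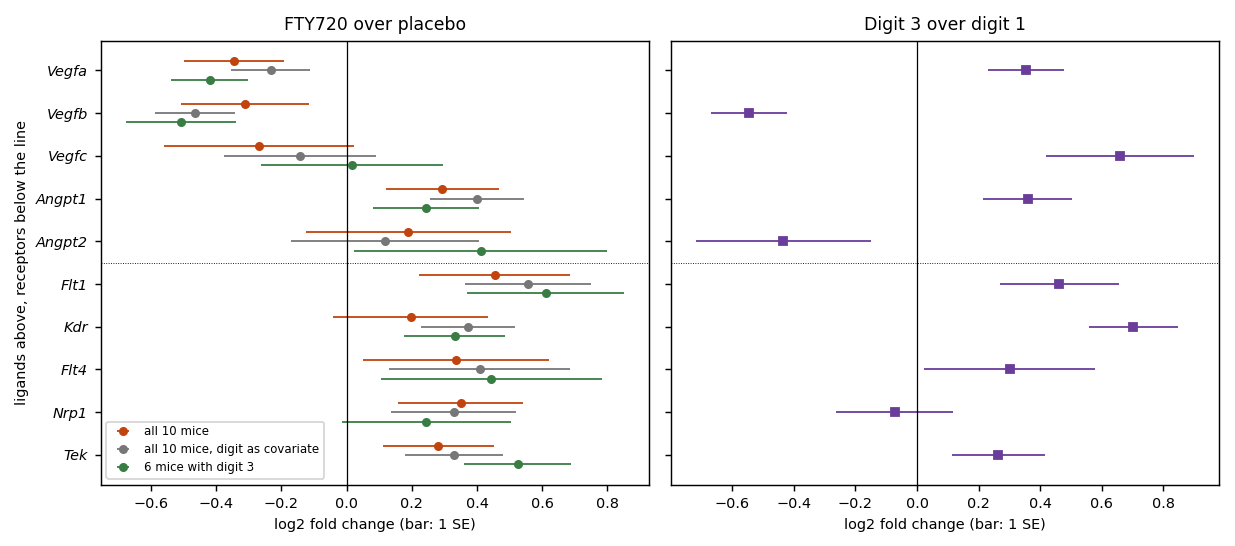
Log2 fold changes (bars, 1 SE) of the 10 genes, ligands above and receptors below the dotted line. Left, FTY720 over placebo in all 10 mice, in all mice with a digit covariate, and in the 6 digit-3 mice; right, digit 3 over digit 1. The receptors are on the positive side in each FTY720 fit, while Vegfa and Vegfb are on the negative side.

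The ratio of a ligand to its receptor in one library does not depend on that library's depth. The Vegfa to Kdr ratio of FPKM was 17.3 in P1-623, 17.8 in P3-612, 16.5 in P3-904 and 16.3 in P3-907. In FTY720 mice it was 16.7, 14.3 and 12.3 in F1-622, F1-624 and F1-918, and 8.76, 10.3 and 11.3 in F3-609, F3-612 and F3-908. The 4 placebo values lay within a narrow range that included P1-623, whose Vegfa and Kdr levels were each the lowest of all mice, and F1-622 alone of the FTY720 mice was inside that range. The mean ratio was 12.3 ± 2.86 (SD, n = 6) under FTY720, against 17.0 ± 0.672 (SD, n = 4) under placebo.

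The Vegfa to Flt1 ratio was 2.84 to 5.76 with FTY720 and 5.22 to 9.87 with placebo, with F1-622 at the top of the FTY720 range again. Vegfc to Flt4, which rests on few counts, was 2.26 to 4.25 with FTY720 and 2.59 to 9.58 with placebo, and overlapped widely. On the angiopoietin side, Angpt1 to Tek was 0.697 to 0.973 and 0.480 to 0.928, and Angpt1 to Angpt2 was 2.46 to 6.41 and 1.31 to 7.80. Over all mice both angiopoietin ratios overlapped between treatments, and the lowest placebo value of each was that of P1-623. Among digit-3 mice, Angpt1 to Tek was 0.697, 0.738 and 0.697 with FTY720 and 0.928, 0.775 and 0.895 with placebo, without overlap, while Angpt1 to Angpt2 overlapped. Flt1 to Kdr, a ratio of 2 receptors, was 2.23 to 3.19 and 1.7998 to 3.16.

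**Figure D4:**
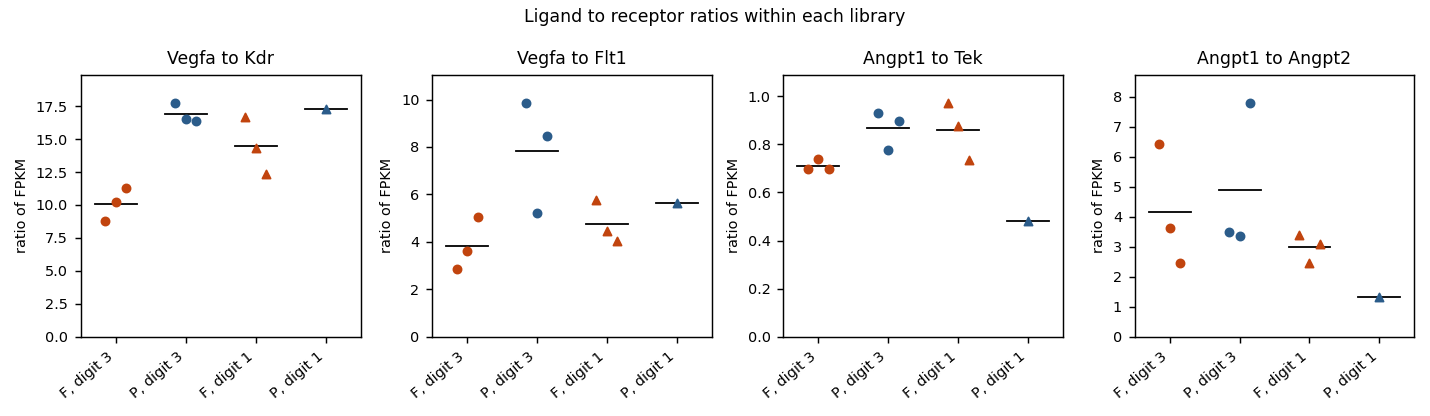
Ratios of FPKM within each library (axis from 0), by treatment (F orange, P blue) and name digit (circles 3, triangles 1), with the group mean as a black line. Vegfa to Kdr was 16.3 to 17.8 in the 4 placebo mice and 8.76 to 16.7 in the 6 FTY720 mice, while Angpt1 to Tek and Angpt1 to Angpt2 overlapped over all mice; among digit-3 mice Angpt1 to Tek was 0.697 to 0.738 with FTY720 and 0.775 to 0.928 with placebo.

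The endothelial list is given beside the receptors. None of these was called over all 10 mice without a covariate, while Flt1, Kdr and Tek were called with the digit as a covariate. For every list in this paragraph, calls are at an unadjusted p under 0.05. Of all protein-coding genes, 2.61% passed over all mice, 7.95% among digit-3 mice and 14.1% with the digit as a covariate. Of the 24 endothelial genes, 7 were called higher with FTY720 and none lower, with 20 of 24 above 0 and a median log2 fold change of 0.24. With the digit as a covariate, 9 of the 24 were called higher and none lower, with a median of 0.31. Pecam1, a junction protein of endothelial cells, was 0.43 higher (SE 0.14), and the transporter Slco1a4 0.61 higher (SE 0.25), whereas Cldn5, the main tight junction claudin of brain endothelium, had a log2 fold change of -0.19 (SE 0.19). The summed list was at 407 to 577 CPM with FTY720 and 384 to 439 CPM with placebo. The list does not hold the receptors themselves. As a percentage of the summed list, Tek was 2.09% to 2.92% in FTY720 mice and 2.15% to 2.80% in placebo mice, Kdr 1.73% to 3.29% and 1.81% to 3.18%, and Flt1 7.49% to 13.9% and 7.33% to 13.8%. These ratios to the list overlapped between the 2 treatments for all 3 receptors. Among digit-3 mice, 5 of 24 endothelial genes were called higher and none lower, and the sum was 478 to 577 CPM with FTY720 and 392 to 439 CPM with placebo. Beyond these ratios, the part of the endothelial list in the receptor levels was not tested. The mural list, of the cells around the vessel, summed to 226 to 278 CPM with FTY720 and 233 to 264 CPM with placebo, with 1 of 16 genes called (higher), and the astrocyte list to 5190 to 6007 CPM and 5167 to 5956 CPM, with 1 of 12 called (lower). Of 12 oligodendrocyte genes, 4 were called lower and all 12 were below 0, with sums of 5813 to 6724 CPM with FTY720 and 6586 to 7726 CPM with placebo. Among digit-3 mice 5 of the 12 were called lower, and the sums were 5861 to 6080 CPM with FTY720 and 6818 to 7726 CPM with placebo, without overlap. Of 10 oligodendrocyte progenitor genes, 2 were called lower over all mice and 5 among digit-3 mice, where their sum was 536 to 618 CPM with FTY720 and 646 to 718 CPM with placebo, without overlap. Of 12 microglia and macrophage genes, none was called over all mice and 3 were called lower among digit-3 mice, where the sum was 275 to 323 CPM with FTY720 and 326 to 400.0 CPM with placebo. In the region lists, which follow the digit, 15 of 16 cerebellum genes were below 0 over all mice (median log2 fold change -0.36) and 11 of 14 cerebral cortex and hippocampus genes above 0 (median 0.11), none of them called. The part of these lists in the ligand and receptor levels was not tested.

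The wider pathway was read against the same shares of all protein-coding genes, 2.61% over all mice, 14.1% with the covariate and 7.95% among digit-3 mice. Of 56 other genes of VEGF and angiopoietin signalling that were tested, 1 was called, Apln, the apelin ligand of endothelial tip cells, with a log2 fold change of -0.55 (SE 0.19); 30 were above 0 and 26 below, with a median of 0.04. Of 25 genes of the hypoxia-inducible factor pathway and its targets, of which Vegfa is the best known, none was called in edgeR's test at an unadjusted p under 0.05, with a median of 0.05. Hif1a itself was at 0.12 (SE 0.18). With the digit as a covariate, 6 of the 56 pathway genes (2 higher, 4 lower) and 3 of the 25 hypoxia genes (2 higher, 1 lower) were called. Among digit-3 mice these counts were 3 (1 higher, 2 lower) and 4 (2 higher, 2 lower). With so few genes, these counts are not a result about either list.

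Between the digits, with treatment as a covariate, 3 of 10 members were called at an adjusted p under 0.05, where 28.4% of all 17665 genes tested were, and none had groups that did not overlap, where 14.2% of genes did. Kdr had the largest called difference, with 11.4 to 16.7 CPM (median 13.0) in the 6 digit-3 mice and 7.87, 9.14, 11.99 and 6.94 CPM in F1-622, F1-624, F1-918 and P1-623. Its log2 fold change was 0.70 (SE 0.15), and only F1-918 reached the digit-3 range. Vegfb was lower in digit-3 mice, at 39.1 to 77.1 CPM (median 53.9) against 65.7, 70.3, 78.9 and 92.6 CPM (log2 fold change -0.55, SE 0.12). The calls of Kdr and Vegfb held in 10 of 10 cases when 1 mouse was left out. Without treatment as a covariate, Vegfb had a log2 fold change of -0.42 (SE 0.17) and was no longer called, while Vegfc, at 0.69 (SE 0.23), was.

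Vegfa was higher in digit-3 mice, at 67.4 to 102 CPM (median 85.4) against 62.3, 62.0, 70.3 and 57.0 CPM (log2 fold change 0.35, SE 0.12). This call was lost in 6 of 10 cases when 1 mouse was left out, and without P1-623 the log2 fold change was 0.16, the same as among the FTY720 mice alone (0.16, SE 0.13). The Vegfa to Vegfb ratio of FPKM was 0.481 to 0.647 in the 6 digit-3 mice and 0.230 to 0.355 in the 4 digit-1 mice, without overlap. The members not called were Vegfc (log2 fold change 0.66, SE 0.24, called by DESeq2), Flt1 (0.46, SE 0.19), Angpt1 (0.36, SE 0.14), Flt4 (0.30, SE 0.28), Tek (0.26, SE 0.15), Nrp1 (-0.07, SE 0.19) and Angpt2 (-0.43, SE 0.28). Of the 5 receptors, 4 were above 0, with a median of 0.30 over the 5, and Nrp1 was below 0 but within its error. Of the 3 VEGF ligands 2 were above 0 and 1 below, and of the 2 angiopoietins 1 was above and 1 below.

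The endothelial list differed little between digits, with 1 of 24 genes called, Slco1a4 (log2 fold change 0.72, SE 0.15), where 28.4% of all genes tested were. Its sum was 392 to 577 CPM with digit 3 and 384 to 488 CPM with digit 1. Kdr, which is not in the list, was, as a percentage of that sum, 2.69% to 3.29% with digit 3 and 1.73% to 2.46% with digit 1, without overlap. Other lists differed with the digit in the same libraries. Beside the 16 cerebellum genes, 13 of 14 cerebral cortex and hippocampus genes were called, 12 of them lower with digit 3, and their sum was 808 to 866 CPM with digit 3 and 1146 to 1313 CPM with digit 1. The neuron list summed to 7199 to 7798 CPM and 7888 to 8711 CPM, and the microglia and macrophage list to 275 to 400.0 CPM and 402 to 520 CPM, neither with overlap. The part of these lists in the Kdr, Vegfa and Vegfb levels was not tested.

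Of the 56 other pathway genes, 18 were called between the digits, 10 higher and 8 lower in digit-3 mice, with a median log2 fold change of 0.00. That is 32.1% of them, near the 28.4% of all genes called. The 4 with the smallest p were Svep1, an extracellular matrix protein (log2 fold change 2.46, SE 0.25), the focal adhesion adaptor Pxn (1.15, SE 0.13), the netrin receptor Unc5b (0.69, SE 0.12) and the kinase Src (-0.54, SE 0.10). Of the 25 hypoxia pathway genes, 7 were called, 3 higher and 4 lower, which is 28.0% of them, the background share again. Neither count is a result about its list. Among the genes called Arnt (0.87, SE 0.13) and Hif1a (0.56, SE 0.09), the partners of the hypoxia-inducible factor, and its target Car9 (1.60, SE 0.34) were higher, and the oxygen sensor Egln2 (-0.56, SE 0.11) was lower. Egln2 is the only gene named of the 4 called lower. Of all 25 genes, 10 were above 0 and 15 below, with a median of -0.12. The list summed to 2060.5 to 2346 CPM with digit 3 and 2357 to 2550 CPM with digit 1.

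The interaction of treatment and digit was fitted over all 10 mice. It uses the same values that were known when the members were chosen, so it too is a description. Placebo with digit 1 is the single mouse P1-623, which is assumed to vary like the mice of the other groups. Of all 17665 genes tested 0% were called, and none of the 10 members; 345 genes had an unadjusted p under 0.05 in edgeR. Vegfa had an interaction of -0.61 on the log2 scale (SE 0.21), not called. In digit-3 mice the Vegfa level was lower in 3 of 3 FTY720 mice than in all placebo mice, and in digit-1 mice it was higher in 3 of 3 FTY720 mice (62.0 to 70.3 CPM) than in the lone placebo mouse (57.0 CPM).

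Mice whose number begins with 9, which carry high Xist, were compared with those whose number begins with 6, a comparison the choice of members did not use. Treatment and name digit were covariates. None of the 10 members was called in edgeR at an adjusted p under 0.05, where 0.034% of all genes were, and none had groups that did not overlap, where 0.323% did. Log2 fold changes ran from -0.09 (Angpt2, SE 0.31) to 0.33 (Flt4, SE 0.28), and Vegfa was at 0.09 (SE 0.12). All 10 adjusted p-values of edgeR were 0.99991, and 286 of all genes had an unadjusted p under 0.05.

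Across the 10 mice, the genes whose log2 CPM was most like that of Vegfa, among the 17664 other genes tested, were 1700048O20Rik (Pearson r = 0.94), Kmt5c (r = 0.93) and Trp63 (r = 0.92). For Kdr they were Zfp715 (r = 0.96), Cgn (r = 0.95) and Phtf2 (r = 0.94). These correlations describe the same 10 libraries, in which digit, treatment and depth differ between mice for all genes alike, and the highest of so many values is high by selection.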

How the data were processed

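Bulk brain RNA of 10 Slc20a2-HO mice was analysed. The authors called bases with Casava, aligned paired-end reads to GRCm38/mm10 with HISAT2 2.0.5 and deposited counts per gene without normalization; the submitters' processing notes also list featureCounts 1.5.0-p3, and the strand setting is not given in the sources used here. In genes with at least 50 counts, the deposited FPKM values equalled counts divided by gene length and 1 total per mouse, within a tolerance of 0.001; lower counts were not checked. FPKM values were used to compare genes with each other.

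After filterByExpr and TMM scaling, edgeR 4.0.16 (R 4.3.3) was run with its quasi-likelihood test. FTY720 was compared without a covariate and, after the study, counted at an unadjusted p under 0.05 among protein-coding genes. The digit comparison had treatment as a covariate, and the leading-digit comparison had treatment and the name digit. Like the interaction, both used Benjamini-Hochberg adjustment over all genes tested. The SE is the log2 fold change over the root of F. Neighbouring levels were compared by exact sign-flip permutation on log2(FPKM + 0.1).

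The members, gene lists and tests were chosen with earlier results of these data known. The genes named were the members, pathway and hypoxia genes called with FTY720, the 4 of each list with the smallest p between digits, up to 3 genes of a cell type list, Slc20a2, and the 3 genes most like Vegfa and Kdr; Hif1a with FTY720 and Xist were chosen after their values were seen. Some endothelial genes are also in the pathway list. Alternatives were DESeq2 1.42.0, voom of limma 3.58.1, other scalings and filters, covariates, subsets and each mouse left out. On simulated data with 200 genes changed by 2 on the log2 scale, the FTY720 fit recovered 200 with 11 false calls among 17418 genes, and the interaction 177 with 5 among 17403. These calls were made at an adjusted p under 0.05, whereas the FTY720 calls above are unadjusted. No difference between digits was simulated for the FTY720 fit, and 2 is larger than any change of a member. The counts therefore do not measure how well the FTY720 calls hold.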

Additional observations from a re-analysis of the deposited data

Results flagged for a closer look

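In 40 groups of 4 to 6 mice, each member's highest and lowest value was compared with the rest by Dixon's criterion, which chance alone passes in about 1 of 20 groups. Each mouse was in a treatment group and a digit group, so the groups are not independent. It was passed 2 times. Nrp1 was at 15.6 CPM in F3-908, the lowest of the 6 FTY720 mice, the nearest of which had 22.7 CPM; without F3-908 the log2 fold change of Nrp1 with FTY720 was 0.44 and was called. Angpt1 was at 5.70 CPM in P1-623, the only placebo mouse with digit 1, where the nearest placebo mouse had 9.30 CPM.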

How the results depend on the processing

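No called value of a member changed sign under any alternative run; of those not called with FTY720, Vegfc crossed 0 among digit-3 mice (0.02) and Angpt2 with 1 mouse left out (-0.06 at the lowest). The 386 protein-coding genes called with FTY720 became 2083 with the digit as a covariate, 1172 among digit-3 mice alone and 0 at an adjusted p under 0.05 (461 of all genes tested had an unadjusted p under 0.05). Leaving out 1 mouse gave 213 to 862, with 213 without P3-612, 214 without P3-907 and 862 without P3-904. The 1 member called became 5 with the digit as a covariate, 4 among digit-3 mice, 2 with no filter on low counts, and 0 with limma-voom, with the leading digit as a covariate or at an adjusted p under 0.05, and 0 to 3 with 1 mouse left out, 3 without P3-904. Between the digits, 5010 genes became 3106 among FTY720 mice alone and 2593 to 6046 with 1 mouse left out, with 2593 without P1-623 and 2908 without F3-609; the 3 members called became 2 to 5, with 5 without F3-908. With no filter on low counts, the leading-digit comparison called 31 genes instead of 6 and the interaction 26 instead of 0; the cause of these shifts was not tested. In the order of levels, 6 to 8 of the 9 pairs passed with 1 mouse left out. The other 98 values that answer a comparison stayed within 1.5 times or on their side of the threshold. No paired analysis was possible because the mice's numbers do not repeat between the treatment groups, apart from 612. Counts of 16 to 63 per mouse limit Vegfc, Flt4 and Angpt2, and P1-623 alone stands for placebo with digit 1.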
